A study of Mus musculus with 6 samples.

Results

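The EGR transcription factor genes Egr1, Egr2 and Egr3 and the genes of their corepressors, Nab1 and Nab2, were followed in mammary tumour cells sorted from mouse lungs. The 5 genes were chosen by symbol, and every probe set annotated with exactly 1 of these symbols was kept, which gave 9 probe sets. They are 5 of 18193 genes with such a probe set, and all 5 were among the 13090 genes tested. The only measured value in that rule is the mean over the 6 arrays, which decided which probe set of a gene leads. The family itself was selected on known differences of Egr1 and Nab2 between the groups of these arrays, so the differences and adjusted p-values below describe these arrays and are not independent support.

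The cells were MVT1, a single line of metastatic mouse mammary tumour cells, tagged with green fluorescent protein (GFP). Each FVB/N mouse was given 3000000 of them by vein, and all 6 samples share this line, strain and sort. The 1-week vehicle group and the 2-week vehicle group (2 arrays each) came from 2 control mice each, at 1 and 2 weeks after injection, and the 2-week GW2580 group (2 arrays) came from mice gavaged daily from week 1 with 160 mg per kg of GW2580, a small-molecule inhibitor of the kinase of CSF1R, the receptor for colony-stimulating factor 1 on macrophages. The design text calls both control groups vehicle-treated but starts gavage of drug or vehicle at 1 week, so the 1-week mice had little or no gavage, and time and gavage cannot be told apart between the control groups. The labels used here state neither the age of the mice nor how many stand behind each GW2580 array; the spread of that group may therefore be technical. The comparisons asked what changes in the tumour cells from the early to the later stage of lung metastasis, and what blocking CSF1R changes at the later stage.

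EGR proteins are zinc finger factors that bind GC-rich sites. Their genes belong to the immediate early genes, which growth factor and stress signals switch on within minutes through the ERK kinases and serum response factor (SRF). NAB1 and NAB2 bind a repression domain shared by EGR1, EGR2 and EGR3 and dampen transcription by them, and NAB2 can recruit CHD4, a subunit of the NuRD chromatin complex. Nab2 is itself known as an EGR target, which makes the pair a negative feedback loop, while Nab1 is regarded as the more constant of the corepressors.

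Promoter windows of Nab2, Nab1 and Egr2, from 250 bases before to 50 after an annotated transcript start, are printed because they hold the letters through which such a loop could be read. They are from RefSeq on GRCm38.p6, 5′ to 3′ on the strand of the gene. Capitals mark GCGTGGGC in Nab2, GCGTGGGCG in Nab1, on either strand, and a CArG box, the type of site SRF binds, in Egr2. The windows lie at chr10:127666654-127666953 (minus strand) for Nab2, chr1:52500399-52500698 (minus strand) for Nab1 and chr10:67537619-67537918 (plus strand) for Egr2.
Nab2: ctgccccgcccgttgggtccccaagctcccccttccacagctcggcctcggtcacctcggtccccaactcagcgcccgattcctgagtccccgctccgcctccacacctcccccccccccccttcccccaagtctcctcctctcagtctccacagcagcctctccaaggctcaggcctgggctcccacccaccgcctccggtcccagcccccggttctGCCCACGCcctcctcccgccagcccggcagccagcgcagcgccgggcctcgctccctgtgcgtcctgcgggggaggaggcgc
Nab1: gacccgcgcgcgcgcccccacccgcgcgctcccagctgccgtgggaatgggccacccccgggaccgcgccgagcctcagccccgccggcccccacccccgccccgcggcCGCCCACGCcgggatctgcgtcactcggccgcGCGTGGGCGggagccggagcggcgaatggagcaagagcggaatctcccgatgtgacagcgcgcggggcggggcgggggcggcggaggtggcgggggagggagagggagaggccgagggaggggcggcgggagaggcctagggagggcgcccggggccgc
Egr2: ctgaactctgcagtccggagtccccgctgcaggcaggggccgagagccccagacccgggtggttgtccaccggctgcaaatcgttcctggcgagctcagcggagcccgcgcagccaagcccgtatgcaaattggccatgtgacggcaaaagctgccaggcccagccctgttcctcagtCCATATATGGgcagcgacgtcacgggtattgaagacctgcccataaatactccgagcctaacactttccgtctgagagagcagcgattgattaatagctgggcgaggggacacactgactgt

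These motifs were searched on both strands. Among the members only windows of Nab2, Nab1 and Egr2 were searched, and none of Egr1 or Egr3. The 9-letter EGR motif GCGTGGGCG occurred 2 times in the Nab1 window, with first bases at -141 and -109 counted from the transcript start, and not in the Nab2 or Egr2 windows. It occurred in 0.612% of 32851 promoter windows of the same length. Its first 8 letters, GCGTGGGC, searched after the windows had been seen and overlapping every 9-letter match, occurred 1 time in the Nab2 window, with its first base at -32, and in 1.63% of all windows. A CArG box began at -72 in the Egr2 window shown and in 1.63% of all windows. There were 5 Egr2 windows, of which 4 held a CArG box, 3 of them the same box in overlapping windows, and none held either EGR motif. The Egr2 window shown was the first with a CArG box that also held TGACG, a motif found in 20.8% of all windows. These matches describe letters in a window; binding was not measured here.

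Expression is given on the log2 scale of RMA, the authors' normalization, which brings all arrays to nearly the same distribution. Array medians lay between 5.57 and 5.63, and replicate arrays correlated at r = 0.988 to 0.992 over the genes tested. The gap between 3' and 5' control probe sets, a measure of RNA integrity, set 1 array apart: in 2-week vehicle replicate 2 it was 1.20 for beta-actin and 0.92 for Gapdh (log2), and on the other 5 arrays 0.38 to 0.50 and -0.13 to -0.10. The epithelial keratin genes Krt8 (13.5 to 13.8) and Krt18 (12.9 to 13.4) were high on all arrays, Krt19 read 7.03 to 8.71 and Epcam 6.85 to 7.31, and the probe sets of the junction genes Cdh1, Cldn4 and Cldn7 were below the filter on low values, a mean of 4.97. Of the 4 tested, 0 passed with limma (1 at an unadjusted p under 0.05 in each comparison). Between weeks 4 of 4 were negative (median -0.23; Krt18 at -0.39), and with GW2580 2 of 4 were (median 0.16; Krt19 at 0.94).

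Egr1 gave a strong signal, with a mean above that of 98.7% of all non-control probe sets, a rank that also reflects how well its probes bind. Its single probe set read 12.63 and 12.74 on the 1-week vehicle arrays, 10.73 and 11.50 on the 2-week vehicle arrays and 12.82 and 12.21 on the GW2580 arrays. The 2-week vehicle arrays were the lowest and overlapped neither other group, whereas the GW2580 arrays stood on either side of the 1-week pair. Egr1 fell by 1.57 log2 units (SE 0.27, n = 2 arrays a group), or 2.97-fold, between 1 and 2 weeks under vehicle, with a limma adjusted p of 0.0243. Its level was 2.64-fold higher with GW2580 than with vehicle at 2 weeks, a log2 difference of 1.40 (SE 0.27) with a limma adjusted p of 0.0783, which did not pass the threshold of 0.05. In these sorted samples, fewer cells of a type and less RNA per cell cannot be told apart.

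Egr3, a close relative of Egr1, gave different readings on its 2 probe sets. The leading one, for which the platform annotation lists no accession, read 8.94 and 9.31 at 1 week, 7.62 and 8.05 in 2-week vehicle and 9.05 and 8.16 with GW2580. As with Egr1, both 2-week vehicle arrays were below every other array, although the lower GW2580 array, at 8.16, lay close to the higher of them, at 8.05. Egr3 fell by 1.29 (SE 0.29), or 2.44-fold, between 1 and 2 weeks (limma adjusted p 0.0416), and differed by 0.77 (SE 0.29) between GW2580 and vehicle (limma adjusted p 0.22). The other Egr3 probe set, which the annotation ties to the RefSeq transcript, read 7.50 and 7.34, 7.25 and 7.11, and 7.23 and 7.28 in the same order. Its differences were -0.24 and 0.08, with unadjusted limma p-values of 0.0943 and 0.565 in the fit of all probe sets, so the fall of Egr3 rests on its brighter probe set.

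Egr2, known for its roles in Schwann cells and lymphocytes, showed no difference that passed. Its leading probe set read 7.36 and 7.59 at 1 week, 7.06 and 7.51 in 2-week vehicle and 8.24 and 7.51 with GW2580. Only replicate 1 of the GW2580 group stood above the rest; its replicate 2 read the same, at this rounding, as that of 2-week vehicle, and these groups overlap. The difference was -0.19 (SE 0.25, 95% interval -0.77 to 0.39) between 1 and 2 weeks and 0.59 (SE 0.25, 95% interval 0.01 to 1.17) between GW2580 and vehicle, with limma adjusted p-values of 0.722 and 0.271. The second Egr2 probe set followed it, with 7.25 on replicate 1 of the GW2580 group, 6.13 to 6.43 on the other arrays, and differences of -0.12 and 0.46.

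Nab2, the inducible corepressor gene, had the closest replicates of the moving members. Its single probe set read 8.22 and 8.28 at 1 week, 7.37 and 7.54 in 2-week vehicle and 8.48 and 8.47 with GW2580. The 3 groups did not overlap, with GW2580 highest and 2-week vehicle lowest. Nab2 fell by 0.80 (SE 0.13), or 1.74-fold, between 1 and 2 weeks (limma adjusted p 0.0188) and rose by 1.02 (SE 0.13), or 2.03-fold, with GW2580 against vehicle at 2 weeks (limma adjusted p 0.0443). By p-value it was gene 11 of 13090 in the inhibitor comparison and gene 155 in the time comparison.

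Nab1, the other corepressor gene, stayed within 0.33 log2 units on all 6 arrays. Its leading probe set read 9.93 and 9.88 at 1 week, 9.92 and 9.66 in 2-week vehicle and 9.90 and 9.60 with GW2580, with overlapping groups throughout. The differences were -0.12 (95% interval -0.47 to 0.24) and -0.04 (95% interval -0.39 to 0.32), with limma adjusted p-values of 0.715 and 0.929. A second probe set, at a mean of 8.41, differed by -0.12 and -0.11. The remaining probe set, at 3.88 and below the filter, read 3.71 to 3.80 on the 4 vehicle arrays and 4.11 and 4.21 with GW2580, a difference of 0.43 at a level near the bottom of the scale (adjusted p 0.154 in the limma fit of all probe sets).

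**Figure D1:**
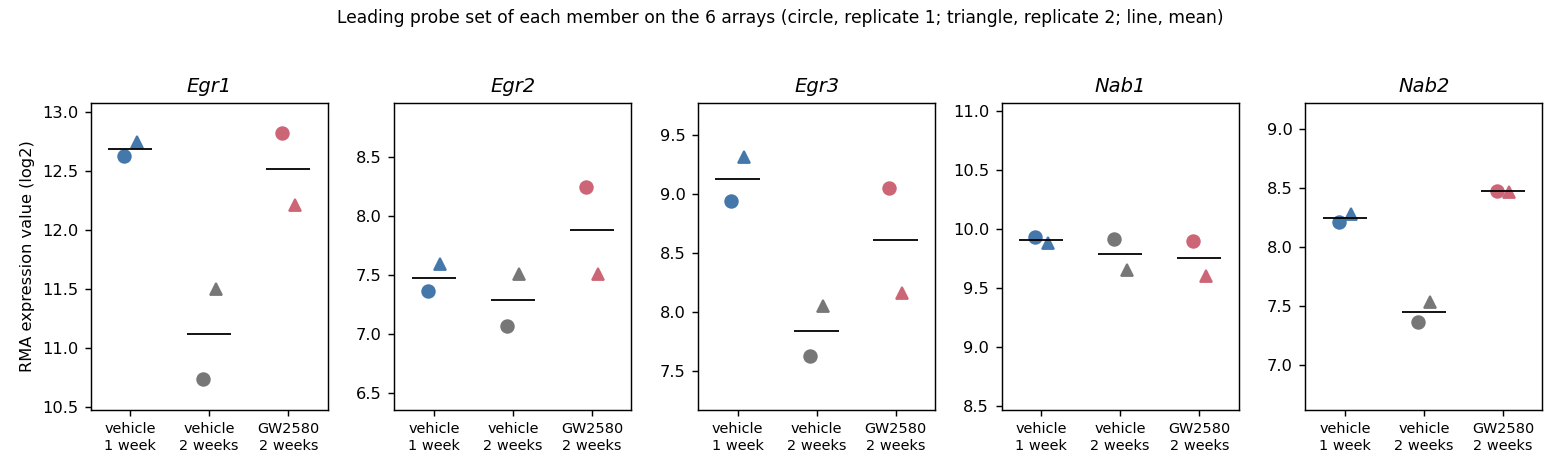
RMA expression value (log2, y axis, the same span in every panel) of the leading probe set of Egr1, Egr2, Egr3, Nab1 and Nab2 on the 2 arrays of each group; circles are replicate 1, triangles replicate 2 and lines group means. Egr1, Egr3 and Nab2 are lowest in 2-week vehicle (means 11.12, 7.84 and 7.45), the GW2580 replicates are far apart for the EGR genes and together for Nab2, and Nab1 is level.

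Counted over the family, 3 of 5 leading probe sets fell between 1 and 2 weeks under vehicle (Egr1, Egr3 and Nab2), 2 did not pass and 0 rose. Over all genes tested 2.71% fell and 3.74% rose (6.45% in either direction). The members' median difference was -0.80, beside 0.02 over all genes, and 3 of 5 had groups that did not overlap, all lower, beside 25.2% of all genes lower without overlap. At an unadjusted limma p under 0.05 the same 3 of 5 passed, beside 23.6% of all genes. These calls depend on single arrays: 0 members passed without replicate 1 of the 1-week group (smallest adjusted p 0.158), without its replicate 2 (0.0618) or without 2-week vehicle replicate 1 (0.0878), and Egr1 alone passed without 2-week vehicle replicate 2 (adjusted p 0.0316). The differences of Egr1, Egr3 and Nab2 stayed below 0 in these fits. With the array of the high 3' to 5' gap left out they were larger in size (-1.96, -1.50 and -0.88).

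For GW2580 against vehicle at 2 weeks, 1 of 5 members rose (Nab2), 4 did not pass and 0 fell. Over all genes 0.0688% rose and 0.298% fell (0.367% in either direction). At an unadjusted limma p under 0.05 there were 4 of 5 members, all higher with GW2580 (Egr1, Egr2, Egr3 and Nab2), beside 18.0% of all genes in either direction. The members' median was 0.77, beside -0.05 over all genes, and 3 had groups that did not overlap, all higher, beside 18.3% of all genes. Nab2 did not pass when only the 4 arrays compared were fitted (limma adjusted p 0.0835). Leaving out either 1-week array gave that same fit, since a lone array adds nothing to the estimate of the spread. Nab2 also did not pass without either 2-week vehicle array (differences of 0.94 and 1.11) or without replicate 1 of GW2580 (1.02). Its difference stayed between 0.94 and 1.11 in all 14 alternatives tried. This comparison and the one between weeks share the 2-week vehicle arrays, so a low reading there enters both with opposite sign.

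**Figure D2:**
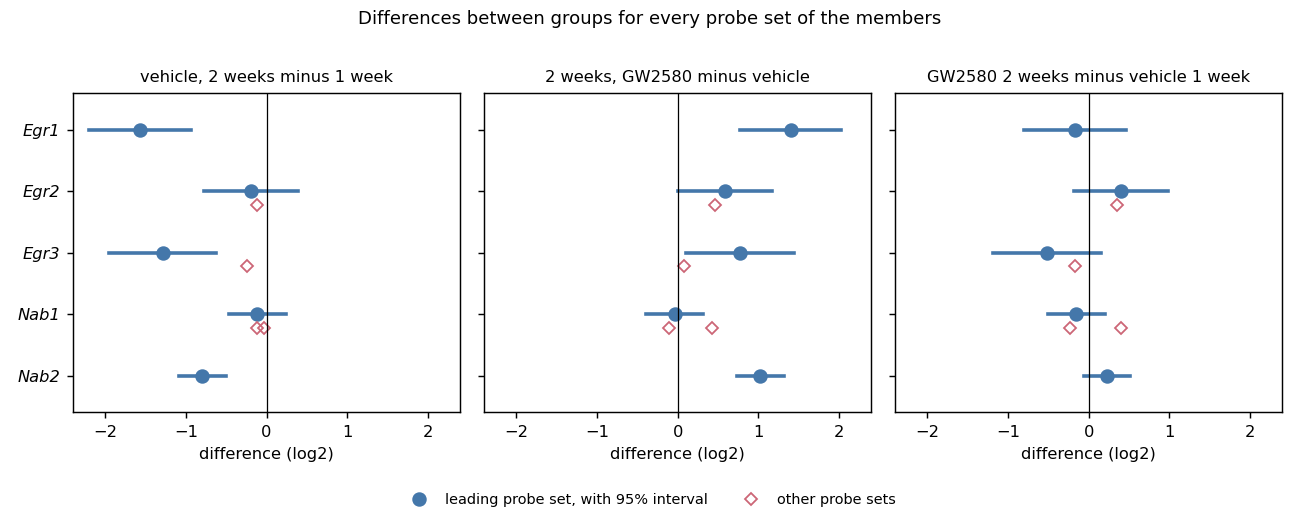
Log2 difference between groups (x axis) for each member (y axis) in the 3 comparisons; filled circles are leading probe sets with limma 95% intervals, open diamonds the other probe sets. Egr1 (-1.57, then 1.40) and Nab2 (-0.80, then 1.02) lie away from 0 in the first and second panels, the leading Nab1 probe set lies near 0 in all 3 while its dimmest one lies at 0.43 and 0.39 in the panels with GW2580, and the second Egr3 probe set (-0.24, 0.08) does not follow the first.

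The arrays of GW2580 at 2 weeks were also set against those of vehicle at 1 week, which do not include the shared group. No member passed with limma, at an adjusted p or at an unadjusted p under 0.05 (0 of 5 in each case), beside 0.512% of all genes called and 17.0% at the unadjusted level. Nab2 alone had groups that did not overlap, higher with GW2580, beside 18.8% of all genes. Egr1 differed by -0.17 (95% interval -0.80 to 0.46), Egr2 by 0.40 (-0.18 to 0.98) and Egr3 by -0.52 (-1.19 to 0.15). Nab1 differed by -0.15 (-0.51 to 0.20) and Nab2 by 0.23 (-0.06 to 0.52). The Egr1 interval reaches down to -0.80, so a level equal to that at 1 week was not shown. By group mean, 2-week vehicle was the lowest group for Egr1, Egr2, Egr3 and Nab2, with 1-week vehicle highest for Egr1 (12.69 against 12.52) and Egr3 (9.13 against 8.61) and GW2580 highest for Egr2 (7.88 against 7.47) and Nab2 (8.48 against 8.25). None of these upper pairs passed. The order for Nab1 was 9.90 at 1 week, 9.79 in 2-week vehicle and 9.75 with GW2580, with no neighbours that differed beyond their spread.

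Replicates of the 2-week groups varied together across the EGR genes. In the GW2580 group replicate 1 exceeded replicate 2 by 0.60 for Egr1, 0.74 for Egr2 and 0.89 for Egr3, gaps that 4.58%, 2.34% and 1.19% of all genes matched or exceeded in that group. In the 2-week vehicle group replicate 1 was below replicate 2 by a gap of -0.77 for Egr1, -0.45 for Egr2 and -0.43 for Egr3, matched or exceeded by 1.28%, 6.75% and 7.49% of genes. At 1 week the gaps were smaller, at -0.11 for Egr1, -0.23 for Egr2 and -0.38 for Egr3, matched or exceeded by 58%, 28.8% and 10.7% of genes. The Nab2 gaps were 0.01 with GW2580 and -0.17 in 2-week vehicle, beside median absolute gaps of 0.18 and 0.13 over all genes. Over the 6 arrays Egr1 correlated at r = 0.93 with Egr3, 0.91 with Nab2, 0.68 with Egr2 and 0.15 with Nab1, and Nab2 at -0.02 with Nab1. Those arrays form 3 groups of 2, so the coefficients describe shared group levels as much as shared variation.

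Other immediate early genes respond to the same signals. Of 23 tested, 12 fell between 1 and 2 weeks under vehicle, 11 did not pass and 0 rose, with a median of -0.74, beside 2.71% lower, 3.74% higher and a median of 0.02 over all genes. The AP-1 subunit gene Jun fell by 1.28 (SE 0.19, limma adjusted p 0.0168), with a difference of -1.55 on its other probe set. The orphan nuclear receptor gene Nr4a2 fell by 1.23 (SE 0.19, limma adjusted p 0.0185), with differences from -1.21 to 0.36 on its 5 other probe sets, the last of them below the filter. Ier3 fell by 1.37 (SE 0.22) and the nuclear factor gene Csrnp1 by 0.84 (SE 0.14), with -0.43 on the second Csrnp1 probe set. With GW2580, Csrnp1 rose by 0.97 (SE 0.14, limma adjusted p 0.045; 0.28 on its second probe set), 22 of 23 did not pass, 21 were positive and the median was 0.53, beside 0.0688% higher and a median of -0.05 over all genes. Without single arrays of the vehicle groups, 0 to 2 immediate early genes fell, with 20 to 22 of 23 still negative. Without replicate 2 of GW2580 7 rose, and without its replicate 1 the count was 0.

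Upstream regulators and corepressor partners are given next; with 6.45% of all genes called between weeks and 0.367% with GW2580, a count of 0 in lists this short does not set them apart. Of 7 genes for SRF, its cofactors and CREB1, 0 passed with limma between weeks or with GW2580 (2 and 1 at an unadjusted p under 0.05), with medians of 0.09 and -0.03. The leading Srf probe set differed by 0.41 between weeks and -0.32 with GW2580, and its second probe set by -0.33 and 0.43, so no direction can be given for Srf, which the immediate early list also holds. Of 6 ERK cascade genes tested 0 passed with limma, also at an unadjusted p under 0.05 (medians 0.03 and 0.11; Map2k2, an ERK kinase gene, at 0.16 and -0.27); the other 7 of that list were not analysed here. Of 13 NuRD subunit genes 0 passed with limma (1 and 0 at an unadjusted p under 0.05; medians 0.03 and -0.08). Chd4, the partner of NAB2, differed by -0.26 and 0.36 on its leading probe set and by 0.31 and 0.17 on the next, so the probe sets disagree between weeks. The relatives Egr4, which lacks the NAB-binding domain, and Wt1 differed by -0.27 and -0.49 between weeks and by 0.36 and 0.42 with GW2580, 0 of 2 past the limma threshold in each comparison, and 1 of 2, Wt1, at an unadjusted p under 0.05.

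Genes reported as EGR targets include growth factor, matrix and clotting genes. Of 15 tested, 1 fell and 1 rose between 1 and 2 weeks, beside 2.71% and 3.74% of all genes. Of the rest 13 did not pass, 12 of 15 were negative, the median was -0.21 and 4 had an unadjusted p under 0.05. Id3, an inhibitor of basic helix-loop-helix factors, fell by 1.22 (SE 0.28, limma adjusted p 0.0436), and the tissue factor gene F3 rose by 0.83 (SE 0.16, limma adjusted p 0.0331). Leaving out any 1 of the 4 vehicle arrays took both counts to 0, and the median ranged from -0.22 to -0.04 in these fits. With GW2580 0 passed with limma (4 at an unadjusted p under 0.05), 11 of 15 were positive and the median was 0.24, beside 0.367% of all genes called and 18.0% at the unadjusted level. The count became 2 without replicate 2 of GW2580, and the median 0.10 without its replicate 1 and 0.11 without 2-week vehicle replicate 2. The fibronectin gene Fn1 differed by 1.10 (SE 0.18, limma adjusted p 0.053) and Vegfa, for an angiogenic growth factor, by 1.15 (SE 0.23, limma adjusted p 0.079; 0.85 on its other probe set). The related lists, like the family, were drawn up with earlier results of these data known.

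**Figure D3:**
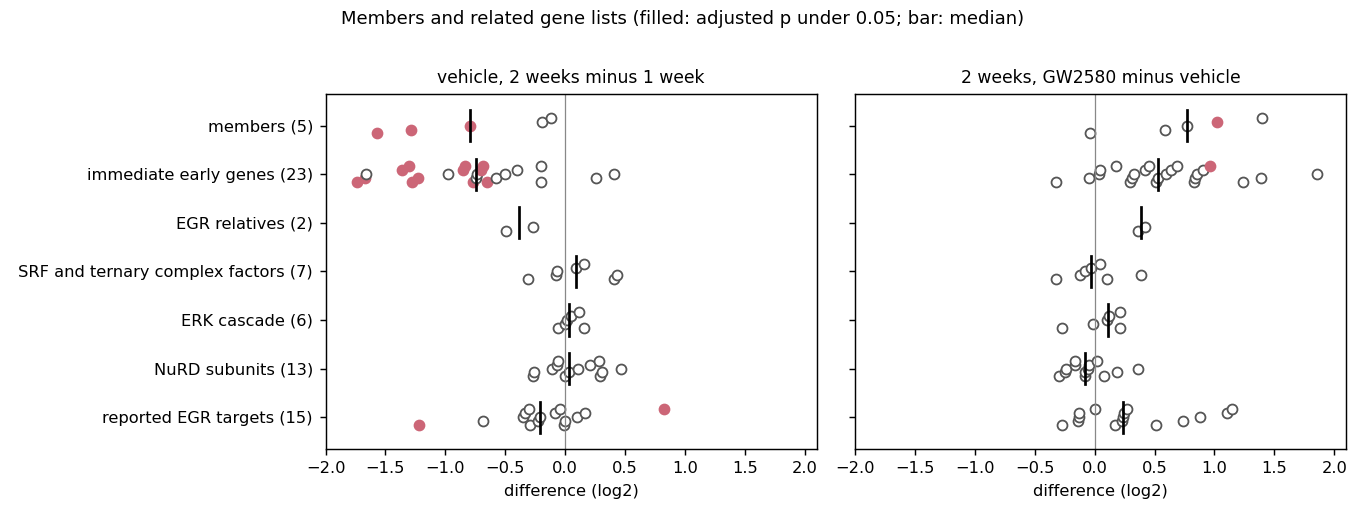
Log2 differences (x axis) of the 5 members and of the tested genes of 6 related lists (y axis, number of genes in brackets) between weeks under vehicle (left) and between GW2580 and vehicle at 2 weeks (right); filled points passed a limma adjusted p of 0.05 and bars are medians. Members and immediate early genes lie mostly below 0 on the left (medians -0.80 and -0.74) and above 0 on the right (0.77 and 0.53), while the SRF, ERK and NuRD lists centre near 0.

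Profiles like those of Egr1 and Nab2 were sought among 1253 genes whose values spanned at least 1 log2 unit, by Pearson r over the 6 arrays. Closest to Egr1 were the pseudokinase gene Trib1 (r = 0.988), the AP-1 gene Fosb (0.984), Trmt1l (0.981), the milk protein gene Csn3 (0.977) and the NF-kB modulator gene Nfkbiz (0.972). Fosb, for example, read 10.67 and 11.13, 8.59 and 9.74, and 10.84 and 10.27, which repeats the order of the Egr1 values within the 2-week groups. The second Trib1 probe set differed by -0.52 between weeks and 0.18 with GW2580, against -0.85 and 0.68 on the leading one. The second Trmt1l probe set differed by -0.02 and 0.13 where the leading one gave -0.83 and 0.81, so the likeness of Trmt1l rests on the leading probe set alone. Closest to Nab2 were Csrnp1 (0.985), Chid1 (0.984), the chaperone cofactor gene Sdf2l1 (0.954), Kctd21 (0.953) and Fn1 (0.946). Csrnp1 read 10.12 and 10.01, 9.11 and 9.34, and 10.26 and 10.12, with its GW2580 replicates closer to each other than those of Fosb. The second Chid1 probe set differed by -0.30 and 0.33, against -0.86 and 0.93 on the first. With 6 arrays in 3 groups such coefficients are high for any gene with the same group means.

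**Figure D4:**
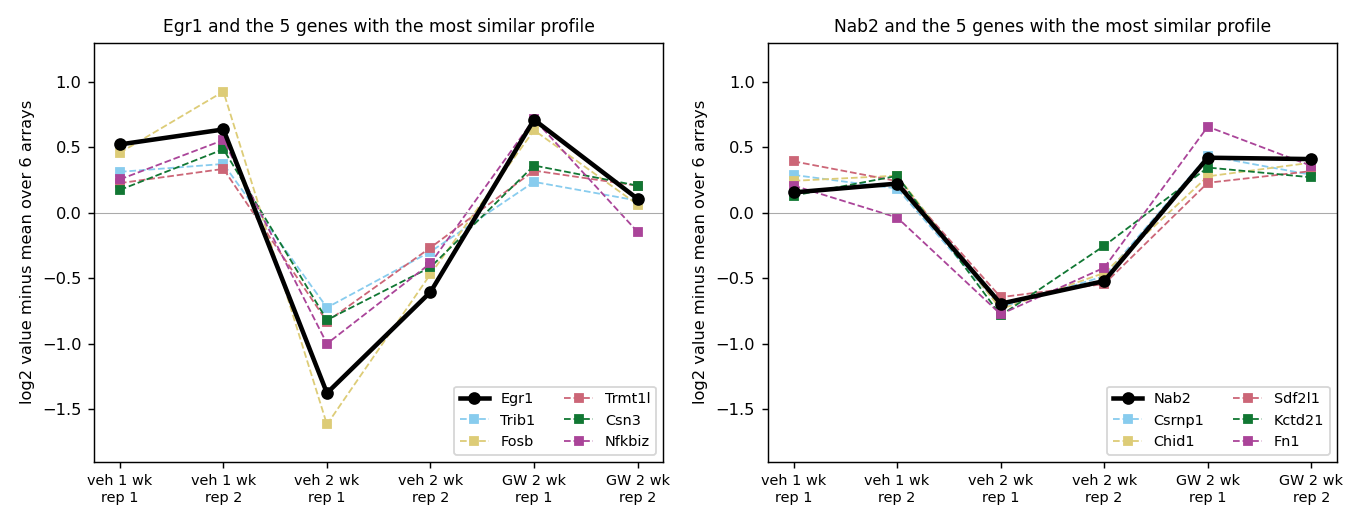
Log2 value minus the gene's mean over the 6 arrays (y axis) on each array (x axis) for Egr1 (left) and Nab2 (right), black, and for the 5 genes with the highest Pearson r to each, coloured. All 12 curves are lowest on the 2-week vehicle arrays; in the Egr1 panel all 6 genes are lower on replicate 2 than on replicate 1 of GW2580, while Nab2 reads 8.48 and 8.47 there.

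Macrophages, lymphocytes and endothelial cells can also express EGR genes, so marker levels are given beside them as the log2 of the summed linear level of a list. Endothelial markers (7 genes, 3 below the filter, among them Pecam1 and Tek) were lowest in 2-week vehicle and, by group mean, highest with GW2580, the order of Egr2 and Nab2. They read 9.62 and 9.38 at 1 week, 9.15 and 8.61 in 2-week vehicle and 9.85 and 9.59 with GW2580. Plvap (mean 8.62, next Kdr at 6.59) weighed most in this sum. The tested genes split, however, with 2 of 4 on either side of 0 between weeks and also with GW2580 against vehicle at 2 weeks. Plvap, a gene of fenestrated endothelium, differed by -1.20 and 1.54 (limma adjusted p 0.0879 and 0.0971), while the endothelial receptor gene Tie1 differed by 0.86 and -0.52, and 0 of the 4 tested markers passed with limma (2 and 1 at an unadjusted p under 0.05). Macrophage and monocyte markers (13 genes, Itgam below the filter) read 11.97 and 12.15, 12.26 and 12.48, and 11.92 and 12.54, and were not lowest in 2-week vehicle. Between weeks 1 of 12 tested passed, Ptprc, which fell by 0.61 (limma adjusted p 0.0387). The list had no common direction, with 5 positive and 7 negative (median -0.08). At an unadjusted p under 0.05 there were 4. Among them Cd68 (0.98), Ctss (0.57) and C1qc (0.42), named after their values were seen, were higher at 2 weeks. With GW2580 0 passed (2 at an unadjusted p under 0.05), 3 were positive and 9 negative, and the median was -0.12. The complement genes C1qc and C1qa differed by -0.58 and -0.73 (limma adjusted p 0.13 and 0.18).

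Fibroblast markers (7 genes, all above the filter) read 12.64 and 11.39 at 1 week, 10.56 and 10.67 in 2-week vehicle and 11.88 and 10.23 with GW2580. Their sum stood higher on replicate 1 of GW2580, as the EGR genes did, but also on replicate 1 at 1 week, where the EGR genes did not. By group mean the sum had the order of Egr1 and Egr3, although its lowest array was GW2580 replicate 2. Pdgfra (5.78 and 6.15) and Pdgfrb (4.71 and 5.01), unlike the other markers of the list, were lower on replicate 1 of GW2580. Of the 7 fibroblast markers, 0 passed with limma (3 between weeks and 1 with GW2580 at an unadjusted p under 0.05). Between weeks 6 of 7 were negative (median -0.81), with Lum at -0.81 and Col3a1 at -1.71 (limma adjusted p 0.114 and 0.12). With GW2580 against vehicle 4 were positive and 3 negative (median 0.10). Lung epithelium markers read 11.85 and 11.17, 11.18 and 10.88, and 11.47 and 9.93. On some arrays that sum was largely the club cell gene Scgb1a1 (11.31 and 10.91 on replicate 1 at 1 week and with GW2580). Of 7 tested, 6 were positive between weeks (median 0.62) and 6 were negative with GW2580 (median -0.69). Sftpd rose by 0.89 between weeks, and Sftpd and Sftpa1 fell by 1.12 and 1.78 with GW2580 (limma adjusted p 0.0251, 0.0445 and 0.0489). At an unadjusted p under 0.05 there were 3 and 6 of 7. Scgb1a1, named after its values were seen, ran the other way and in the direction of Egr1, Egr3 and Nab2, with differences of -3.16 (SE 1.02) and 1.97 (SE 1.02), neither past the threshold. Lymphocyte markers (9 genes, 2 below the filter) read 9.09 and 9.02 at 1 week, 8.86 and 8.86 in 2-week vehicle and 9.13 and 8.89 with GW2580, which is the group order of Egr1 and Egr3, over a narrow range. Of 7 tested, 7 were negative between weeks (median -0.14) and 5 were positive with GW2580 (median 0.20). Neutrophil markers (5 genes) read 8.73 and 9.25 at 1 week, 9.98 and 10.67 in 2-week vehicle and 8.26 and 10.09 with GW2580, highest in 2-week vehicle replicate 2. S100a8 differed by 1.76 between weeks and -1.80 with GW2580 (SE 0.61 each, limma adjusted p 0.131 and 0.192), while the list medians were 0.04 and 0.03. Of these 7 lymphocyte and 5 neutrophil genes, 0 passed with limma (1 of each between weeks, 0 and 1 with GW2580 at an unadjusted p under 0.05). The part of other cells in the EGR and NAB differences was not tested.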

How the data were processed

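Expression was measured on 6 Affymetrix mouse arrays, 1 per sample. The authors deposited log2 values from RMA, as the submitters' processing notes name it, without a version. Of 45101 probe sets, 64 controls were left out and 34945 had 1 gene symbol in the platform annotation (932 several, 9160 none); 34741 matched RefSeq (GRCm38.p6) by gene identifier.

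For each gene the probe set with the highest mean led, and genes whose mean fell short of 4.97 (the 40th percentile of probe set means) were left out. Limma 3.58.1 (R 4.3.3; lmFit with 3 group means over all 6 arrays, then eBayes; 3 residual and 4.97 prior degrees of freedom) gave differences, standard errors (SE) and 95% intervals. P-values were adjusted by Benjamini-Hochberg over 13090 genes and called under 0.05. Values of other probe sets come from the same fit on all non-control probe sets. The number of arrays limits the precision. Exact permutation of 2 against 2 arrays reaches a two-sided p of 0.333 at best and was not used. The procedure was tested on simulated data.

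The members and lists were chosen with earlier results of these data known. Named were all members, the 5 genes most like Egr1 and Nab2 by Pearson r, and from each list up to 4 called genes with the smallest p, or up to 2 where none was called. Fosb and Csrnp1 were chosen from these for their values on each array, and genes below the filter were named after their values had been seen. The alternatives were 2 other filters, all probe sets, the mean of a gene's probe sets, trend and robust eBayes, the 4 arrays compared, scaling to the 75th percentile, the replicate number as a block, and leaving out each array.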

Additional observations from a re-analysis of the deposited data

How the results depend on the processing

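Over 14 alternatives, the 15 member differences kept their direction and side of the threshold in 184 of 210 cases, lost the call in 19 and changed sign in 7, each of the latter in a difference that had not passed. Leaving out an array of the group not compared repeats the fit of the 4 arrays compared, so these cases are not all distinct. Nab1 turned to 0.0949 (GW2580 against vehicle) and 0.00306 (GW2580 against 1 week) with the mean of its probe sets. Without single arrays, Nab1 ranged from -0.184 to 0.113 for GW2580 against vehicle, above 0 without 2-week vehicle replicate 1 or GW2580 replicate 2, and from -0.249 to 0.0135 between weeks, above 0 without 2-week vehicle replicate 2. Egr2 ranged from -0.412 to 0.0337 between weeks, above 0 without 2-week vehicle replicate 1, and Egr1 from -0.473 to 0.132 against 1 week, above 0 without GW2580 replicate 2. Besides the losses of single arrays, Egr3 did not pass between weeks on all probe sets (adjusted p 0.066) nor Egr1 with trend and robust eBayes (0.0515). With the 4 arrays compared alone, 0 members passed for GW2580 against vehicle, where fewer samples set the spread.

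Genes called for GW2580 against vehicle (48) became 74 without a filter, 193 on all probe sets, 131 with trend and robust eBayes, 0 on the 4 arrays compared (2120 at an unadjusted limma p under 0.05) and 154 with the replicate number as a block. Against 1 week (67) they became 36 on all probe sets, 139 with trend and robust eBayes, 24 on the 4 arrays and 182 with the block. Leaving out single arrays gave 0 to 1059 genes between weeks (844), 0 to 167 for GW2580 against vehicle and 0 to 169 against 1 week, and 0 to 3, 0 to 1 and 0 members. The causes were not tested. Same-numbered replicates deviated together at r = 0.002, 0.29 and 0.01, above 0.1 in 1 of 3 pairs of groups, so the numbers were not taken to pair the samples; the block changed no member's call. Each lone array was assumed to vary like the other groups. List counts without single arrays were added after the data were seen.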
